A study of Mus musculus with 69 samples.

Results

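The cortical collecting duct (CCD) of sham-operated mice was compared between 24 h and 72 h after the operation. The members were chosen by their labels: every sham CCD library of the series, 15 of 69 samples. They comprised 8 libraries from 4 mice at 24 h and 7 libraries from 4 mice at 72 h. All mice of the series were male wild-type C57BL/6, 7 weeks old when they were assigned to an operation, and were kept alone in their cages with free access to water and chow. RNA came from microdissected tubules, and cDNA was made from polyA RNA with a low-input kit. CCD of mice with 1 kidney removed (unilateral nephrectomy, UNx; 7 libraries from 3 mice at 24 h and 6 from 4 mice at 72 h) was a separate set of CCD animals for the same times. The S1 part of the proximal tubule (PT-S1) of sham mice (8 libraries from 3 mice and 12 from 5 mice) was another tubule for the same times. No mouse without an operation was used here, so no level before the operation is given.

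The collecting duct is the last part of the renal tubule, where urine is given its final composition. Its principal cells take up sodium through the epithelial sodium channel and water through aquaporins, under aldosterone and vasopressin, and its intercalated cells secrete acid or base. A sham operation brings anaesthesia, a wound and often reduced feeding, which can alter stress hormones and fuel use in many tissues.

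Expression was given as TPM, a share of each library's transcripts scaled by gene length, which keeps no sequencing depth. Each time was held in a table of its own with another set of gene identifiers, and values were rescaled over the 52404 identifiers that the tables share. Levels and tests across the times therefore also carry any difference between the tables: time after the operation, the table, and the hour of dissection or the sequencing run, which are not given, cannot be told apart. Differences are log2(TPM + 1) at 72 h minus 24 h with the mouse as the replicate (n = 4 and 4), a scale that understates the change of low genes. Errors after ± are SD over mice.

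The libraries carried the transcripts of the labelled segment, and also some of the thick ascending limb, another tubule, with higher values at 24 h. Aqp2, the water channel of principal cells, averaged 22544 TPM at 24 h and 15893 TPM at 72 h, and Foxi1, a transcription factor of intercalated cells, 538 and 524 TPM. Slc12a3 of the distal convoluted tubule averaged 0.112 and 0.154 TPM. Umod of the thick ascending limb averaged 1002 TPM at 24 h and 25.1 TPM at 72 h. Slc12a1 of that segment stood at 2.01 to 402 TPM per mouse at 24 h and at 0.0401 to 2.66 TPM at 72 h. For both genes 24 h mouse 2 was the highest. These transcripts are described further below. The number of genes at 1 TPM or more (13635 to 13742 per mouse at 24 h and 13029 to 13829.7 at 72 h) and the percentage of mitochondrially encoded transcripts (2.21 to 2.63% and 1.88 to 3.45%) overlapped between the times (exact permutation p = 0.371 and 0.457, two-sided; the smallest p of 4 against 4 mice is 0.0286). The values per mouse spread more at 72 h: the median SD of log2 values was 0.168 at 24 h and 0.285 at 72 h. Mice 2 and 3 at 72 h and mouse 3 at 24 h gave 1 library each, so these SDs also carry spread between libraries. The part of each was not tested. In 1 library of 72 h mouse 1 the expression profile correlated with those of the remaining CCD libraries of that time, UNx included, at a median of 0.914, against 0.958 to 0.972 for the others. For many results that changed when it was left out, the value without it is given too. A result given without such a value can also depend on this library.

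Few genes passed the test, and those detected at both times were lower at 72 h. Trp53inp1, a p53-induced gene that acts in autophagy and restrains growth, Slc40a1 (ferroportin, the iron exporter of cells) and Cp (ceruloplasmin, which oxidizes exported iron) stood 2.60-fold, 2.00-fold and 2.96-fold higher at 24 h in mean TPM. Of 13745 genes tested with limma, 7 passed an adjusted p of 0.05 (0.0509%), 2 higher and 5 lower at 72 h, and 13 more shared the adjusted p of 0.0507. At an unadjusted p under 0.05, 1753 genes (12.8%) were lower and 569 (4.14%) higher. The mice of the 2 times did not overlap for 1308 genes (9.52%) that were lower and 373 (2.71%) that were higher. Much of this tilt to lower values came with the library of low correlation: without it 1078 genes (7.84%) were lower and 957 (6.96%) higher at unadjusted p under 0.05, and the mice did not overlap for 636 (4.62%) and 595 (4.33%). The median difference over all genes was -0.09, which quantile normalization moved to 0.0012, median-ratio scaling to -0.0059 and leaving out that library to -0.02. The count of called genes depended on single mice: it was 3, 2, 4 and 2 without 24 h mouse 1, 2, 3 and 4, 23 without 72 h mouse 1 and 14 without the library of low correlation.

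Trp53inp1 stood at 31.4, 42.5, 34.9 and 37.4 TPM at 24 h and at 14.4, 13.9, 13.3 and 14.6 TPM at 72 h. All 24 h mice were above all 72 h mice. Without the library of low correlation 72 h mouse 1 stood at 24.5 TPM, still below every 24 h mouse. The difference was -1.40 (SE 0.141, limma adjusted p = 0.00862), with 36.6 ± 4.69 TPM at 24 h and 14.1 ± 0.579 TPM at 72 h. In UNx mice, which share no library with sham, it stood at 26.3 to 31.5 TPM at 24 h and 10.3 to 18.3 TPM at 72 h and fell by 1.05 on the log2 scale (adjusted p = 0.0213). In PT-S1 the difference was 0.65 (adjusted p = 0.248), and the time difference itself differed between CCD and PT-S1 by -2.05 (adjusted p = 0.0104). The call was lost without that library (-1.12, adjusted p = 0.0589), without 24 h mouse 2 and without 24 h mouse 4; over 22 alternatives the adjusted p ran from 6.21e-04 to 0.0669.

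Slc40a1 and Cp act together in the export of iron from cells. Slc40a1 stood at 93.8, 85.1, 90.6 and 116 TPM at 24 h and at 47.9, 53.2, 43.2 and 47.9 TPM at 72 h (-1.05, SE 0.129, adjusted p = 0.0323). Cp stood at 33.7, 30.2, 35.6 and 32.1 TPM at 24 h and at 7.71, 9.13, 16.5 and 11.1 TPM at 72 h (-1.54, SE 0.203, adjusted p = 0.0399). For both genes every 72 h mouse was below every 24 h mouse. In UNx mice both fell, with -0.93 for Slc40a1 and -1.26 for Cp (adjusted p = 0.0116 and 0.0236). In PT-S1 the differences were -0.49 and 0.01 (adjusted p = 0.383 and 0.992), and the difference between segments did not pass for either (adjusted p = 0.537 and 0.0776). Each call was kept in 13 of 22 alternatives, with adjusted p up to 0.139 and 0.149; both were lost without any 1 of the 24 h mice and without 72 h mouse 4, Slc40a1 also without 72 h mouse 3 and without the library of low correlation (-0.82, adjusted p = 0.0957), and Cp also without 72 h mouse 2.

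The other genes of iron handling did not pass. The list, put together after values were seen, held 14 tested genes, of which 2 fell, 5 were lower and 1 higher at unadjusted p under 0.05 (12.8% and 4.14% of all genes), with a median of -0.25. Tfrc, the transferrin receptor that brings iron into cells, stood at 12.5 to 28.7 TPM at 24 h and at 21.5 to 57.9 TPM at 72 h, with overlap (0.78, adjusted p = 0.290). Heph, a ferroxidase like ceruloplasmin, stood at 14.1 to 18.5 TPM at 24 h and at 8.79 to 14.7 TPM at 72 h (-0.55, adjusted p = 0.266), with overlap. The ferritin chains Fth1 and Ftl1, which store iron, had 0.21 and 0.23 (adjusted p = 0.406 and 0.422), also with overlap. Without the library of low correlation 3 of the list were lower and 1 higher at unadjusted p under 0.05 (7.84% and 6.96% of all genes). The median was then -0.10, and Heph, Fth1 and Ftl1 had -0.25, 0.10 and 0.14.

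**Figure D1:**
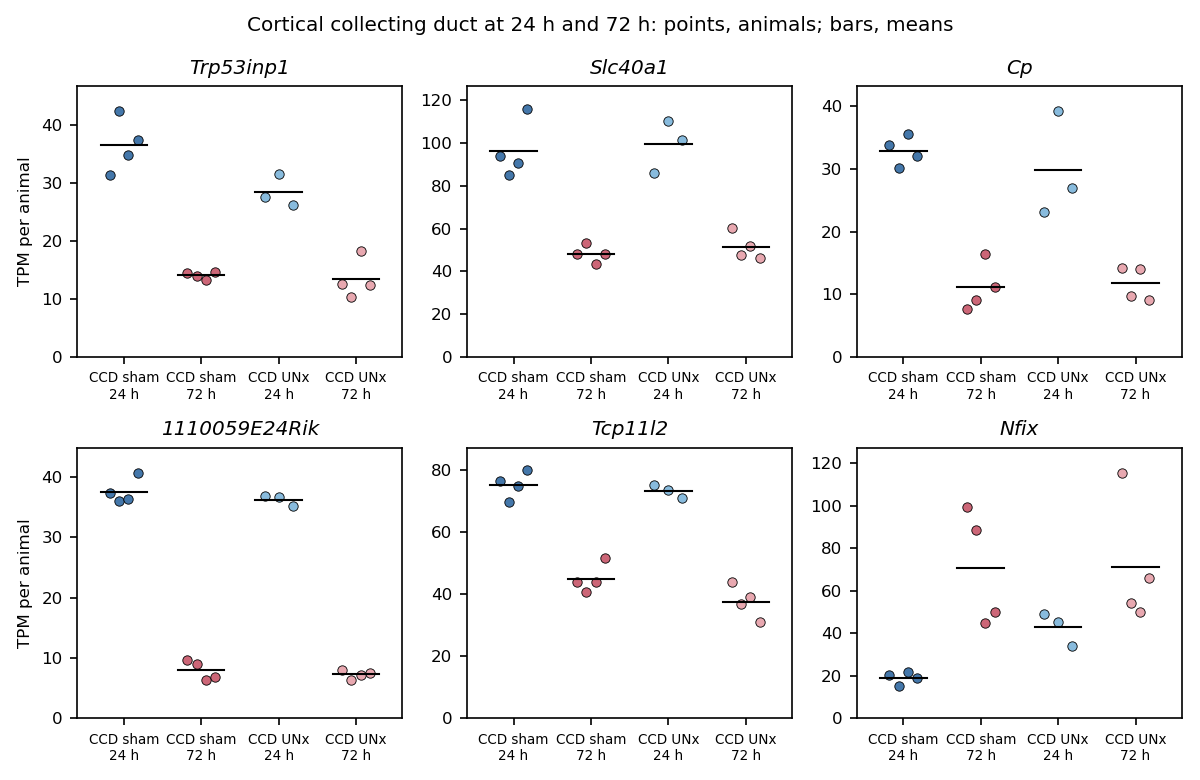
TPM of 6 genes in each CCD mouse (points) with the group mean (bars), for sham and UNx at 24 h and 72 h. The sham mice of the 2 times do not overlap in any panel: Trp53inp1 lies at 31.4 to 42.5 TPM at 24 h and at 13.3 to 14.6 TPM at 72 h, and Nfix is the panel that is higher at 72 h.

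Among the other called genes, Tmem254a and Cphx1 were listed at 0 in every 24 h library. Tmem254a stood at 936, 745, 662 and 757 TPM in the 72 h mice (adjusted p = 6.58e-11) and Cphx1 at 4.01, 1.90, 1.87 and 4.29 TPM (adjusted p = 0.0399). The 24 h tables also list Tmem254b and Tmem254c, at 0 in every library, where the 72 h tables list Tmem254a alone, and PT-S1 likewise had 0 TPM of Tmem254a at 24 h and 458 TPM on average at 72 h. Of all tested genes, 67 were at 0 in every library of a CCD table. The gene 1110059E24Rik fell in sham mice, with 37.6 ± 2.10 TPM at 24 h and 7.99 ± 1.60 TPM at 72 h (-2.12, SE 0.147, adjusted p = 4.42e-04), in UNx (-2.18, adjusted p = 1.72e-04) and in PT-S1 (-1.54, adjusted p = 0.00144), and was called in 22 of 22 alternatives. Gm37676 stood at 3.86 to 8.67 TPM at 24 h and at 0 to 0.880 TPM at 72 h (-2.59, adjusted p = 0.00946). The calls of Gm37676 and Cphx1 were lost without single mice, with adjusted p up to 0.0669 and 0.149. Whether gene models differ between the tables was not tested.

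Genes with the smallest p on the higher side, Tmem254a and Cphx1 aside, did not pass. Nfix, a transcription factor of the nuclear factor I family, stood at 20.2, 15.2, 21.8 and 18.8 TPM at 24 h and at 99.5, 88.6, 45.1 and 49.98 TPM at 72 h (1.77, SE 0.252, adjusted p = 0.0507). The mice did not overlap, and 72 h mice 1 and 2 were well above mice 3 and 4. Tomm40, the pore by which proteins enter mitochondria, stood at 91.2, 90.5, 72.7 and 85.7 TPM at 24 h and at 125, 135, 128 and 137 TPM at 72 h (0.63, adjusted p = 0.0507). Mcrip2 stood at 83.1 to 126 TPM at 24 h and at 177 to 229.8 TPM at 72 h (0.94, adjusted p = 0.0507). Nfix and Tomm40 passed without the library of low correlation (adjusted p = 0.0475 for both). In UNx, Tomm40 and Mcrip2 rose by 0.50 and 0.75 (adjusted p = 0.0167 and 0.00640), and Nfix had 0.92 (adjusted p = 0.0777). The time difference in CCD was above that in PT-S1 by 2.88 for Nfix, 1.31 for Mcrip2 and 0.74 for Tomm40 (adjusted p = 0.00373, 0.0104 and 0.0143).

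Tubulins, the subunits of microtubules, were gathered as a family after values were seen. Of 12 tested, 6 were higher and 0 lower at unadjusted p under 0.05 (4.14% and 12.8% of all genes), and none passed the adjusted threshold. All 6 were without overlap, where 2.71% of all genes were higher without overlap. The beta-tubulin Tubb5 stood at 27.4, 28.6, 26.6 and 25.5 TPM at 24 h and at 39.8, 48.3, 43.3 and 44.7 TPM at 72 h (0.69, SE 0.103, adjusted p = 0.0507). Tubb4b stood at 141 to 167 TPM at 24 h and at 219 to 262 TPM at 72 h (0.58, adjusted p = 0.0573) and the alpha-tubulin Tuba1b at 115 to 129 TPM at 24 h and at 141 to 199.8 TPM at 72 h (0.45, adjusted p = 0.130). The family's median was 0.40, and 0.42 without the library of low correlation, where Tubb5 and Tubb4b passed (adjusted p = 0.0390 and 0.0475). In UNx 5 rose and 0 fell past the adjusted threshold, where 4.1% of all genes rose and 4.71% fell. The time difference in CCD was above that in PT-S1 by 0.83 for Tubb5 and 1.11 for Tubb4b (adjusted p = 0.0242 and 0.00373).

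Btg1 and Hbp1 lay just above the threshold and were picked after their values were seen. Btg1 is also on a list of genes linked to FoxO factors, which are active when insulin signalling is low. Btg1, an inhibitor of proliferation, stood at 237, 289, 282 and 269.6 TPM at 24 h and at 143, 173, 108 and 149 TPM at 72 h (-0.92, SE 0.140, adjusted p = 0.0507). Hbp1, a repressor of cell cycle genes, stood at 182, 156, 179 and 213 TPM at 24 h and at 120.5, 96.1, 116 and 114 TPM at 72 h (-0.73, SE 0.112, adjusted p = 0.0507). Neither gene had a 72 h mouse as high as the lowest 24 h mouse. For Hbp1 this rested on the library of low correlation: without it 72 h mouse 1 stood at 169 TPM, above 24 h mouse 2 (-0.58, adjusted p = 0.177). Promoter stretches of both are shown because each holds the letters GTAAACA, the core of a FoxO element, searched on either strand from 250 bases before to 50 bases after each gene's start. The sequences are from RefSeq, build GRCm38.p6, on the gene's own strand, with the motif in capitals. That of Btg1 lies at chr10:96616757-96616843 (+ strand), with the motif on the opposite strand and 197 bases between it and the start, and that of Hbp1 at chr12:31950348-31950434 (- strand), with 142 bases between.
Btg1: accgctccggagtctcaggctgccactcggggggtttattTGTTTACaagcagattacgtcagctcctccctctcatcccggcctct
Hbp1: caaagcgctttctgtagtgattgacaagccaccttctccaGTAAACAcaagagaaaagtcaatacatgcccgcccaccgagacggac
The letters were found in 1199 of 32851 promoters of the table (3.65%), or 1095 of 27025 genes (4.05%). They were in 3 of the 16 tested FoxO-linked genes with an entry (Btg1, Sesn1 and Txnip), 18.8%, and in the same share of named genes that were lower at unadjusted p under 0.05, 6 of 32 (Btg1, Cry1, Egf, Hbp1, Mcm7 and Slc12a1). Both sets hold genes picked after their values were seen, and Btg1 is in both. The shares were not tested against that of all genes. A match is a description of the letters, and no binding was measured.

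The FoxO-linked list, put together after values were seen, held 20 tested genes. Of these 1 fell (Trp53inp1), and 7 were lower and 0 higher at unadjusted p under 0.05, with a median of -0.31. Over all genes 12.8% were lower and 4.14% higher, with a median of -0.09. Without the library of low correlation 6 were lower, with a median of -0.22, where 7.84% of all genes were lower. Depp1, a FoxO-induced gene, stood at 8.69, 9.47, 16.0 and 6.93 TPM at 24 h and at 3.64, 1.23, 1.58 and 2.06 TPM at 72 h (-1.86, adjusted p = 0.0507). Ccng2, an atypical cyclin that slows the cell cycle, stood at 85.2 to 120.1 TPM at 24 h and at 51.1 to 68.1 TPM at 72 h (-0.77, adjusted p = 0.0650), and Klhl24 at 69.7 to 80.9 TPM at 24 h and at 36.4 to 53.9 TPM at 72 h (-0.91, adjusted p = 0.0615). The mice did not overlap for these 3 genes, and Depp1 passed without that library (adjusted p = 0.0355), where Klhl24 had -0.69 (adjusted p = 0.111). The factors themselves overlapped between the times, with -0.04 for Foxo1 and -0.04 for Foxo3 (adjusted p = 0.940 and 0.957), signs that turned under quantile and median-ratio scaling and without that library. In UNx, Btg1, Hbp1, Depp1 and Ccng2 fell (adjusted p = 0.0280, 0.0174, 0.0183 and 0.0116), and Klhl24 did not pass. In PT-S1, Depp1 rose by 2.63 (adjusted p = 0.00899), and its time difference in CCD differed from that in PT-S1 by -4.49 (adjusted p = 0.00129).

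Other genes close to the threshold were Tcp11l2, Arrdc3, Ptges and Ehf, of which the last 3 were picked after their values were seen. Tcp11l2 stood at 76.5, 69.6, 74.9 and 79.8 TPM at 24 h and at 43.9, 40.7, 43.9 and 51.6 TPM at 72 h (-0.75, adjusted p = 0.0507). Arrdc3, an arrestin-like adaptor, stood at 125 to 201 TPM at 24 h and at 74.6 to 92.9 TPM at 72 h (-1.002, adjusted p = 0.0573). Ptges, which makes prostaglandin E2, stood at 363 to 399.9 TPM at 24 h and at 266 to 287 TPM at 72 h (-0.50, adjusted p = 0.0507), and Ehf, an epithelial transcription factor, at 256 to 288 TPM at 24 h and at 167 to 201 TPM at 72 h (-0.59, adjusted p = 0.0507). The mice did not overlap for any of the 4 with all libraries. Arrdc3 without the library of low correlation stood at 157 TPM in 72 h mouse 1, within the 24 h range (-0.70, adjusted p = 0.228). Tcp11l2 without that library had -0.62 (adjusted p = 0.0805). In UNx all 4 fell, with adjusted p of 0.00983, 0.0383, 0.0250 and 0.0167.

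Targets of p53, which arrests damaged cells, made up a list of 15 tested genes with a median of -0.44. Of these 1 fell (Trp53inp1), and 7 were lower and 0 higher at unadjusted p under 0.05 (12.8% and 4.14% of all genes). Ccng1, cyclin G1, stood at 132, 129, 129 and 143 TPM at 24 h and at 90.5, 94.3, 96.1 and 99.8 TPM at 72 h, with no overlap (-0.53, SE 0.0976, adjusted p = 0.0713). With the library of low correlation left out, 72 h mouse 1 stood at 136 TPM, above 24 h mice 1, 2 and 3, and the difference was -0.33 (adjusted p = 0.251). Cdkn1a, the p21 inhibitor of cell cycle kinases, averaged 78.6 and 60.2 TPM (-0.47, adjusted p = 0.462), and was picked after its values were seen. Without the library of low correlation 4 of the list were lower at unadjusted p under 0.05, where 7.84% of all genes were, and the median was -0.24.

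Genes of fatty acid oxidation and ketone formation mostly had lower values at 72 h, and no member passed the test in sham mice. Of 22 tested, 10 were lower and 0 higher at unadjusted p under 0.05, 7 of the list had mice that did not overlap, and the median was -0.25, against 12.8%, 9.52% and -0.09 over all genes. Pdk4, the kinase that keeps pyruvate out of oxidation when fat is used, stood at 57.3, 156, 111 and 73.4 TPM at 24 h and at 28.0, 22.5, 47.9 and 34.2 TPM at 72 h (-1.54, SE 0.321, adjusted p = 0.0936). Every 24 h mouse was above every 72 h mouse, and 24 h mouse 2 was the highest. Cpt1a, which lets fatty acids into mitochondria, stood at 178, 226, 205 and 211 TPM at 24 h and at 118, 138, 161 and 171 TPM at 72 h, a narrow separation (-0.60, adjusted p = 0.193). That separation rested on the library of low correlation: without it 72 h mouse 1 stood at 199 TPM, above 24 h mouse 1, and the difference was -0.30 (adjusted p = 0.295). Angptl4, an inhibitor of lipoprotein lipase, stood at 7.37, 21.7, 18.0 and 9.49 TPM at 24 h and at 9.28, 1.10, 3.28 and 1.24 TPM at 72 h, with overlap through 72 h mouse 1 (-1.89, adjusted p = 0.136), which ended without that library (-2.03, adjusted p = 0.0960). Cpt1a and Angptl4 were picked after their values were seen.

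The separate CCD animals gave calls in this list. In UNx 11 of the 22 fell, where 4.71% of all genes did, and 0 rose, with -3.26 for Angptl4, -2.39 for Pdk4 and -0.50 for Cpt1a (adjusted p = 0.00402, 0.00640 and 0.0191). In PT-S1 4 of 22 fell and 0 rose, where 3.57% of all genes passed in either direction (of 12061, 273 fell and 158 rose). Without the library of low correlation, 9 of the list were lower in sham CCD at unadjusted p under 0.05 (7.84% of all genes). Of the list 6 were then lower without overlap, where 4.62% of all genes were. Without 24 h mouse 2, 7 were lower at unadjusted p under 0.05, where 1341 of 13734 genes were.

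**Figure D2:**
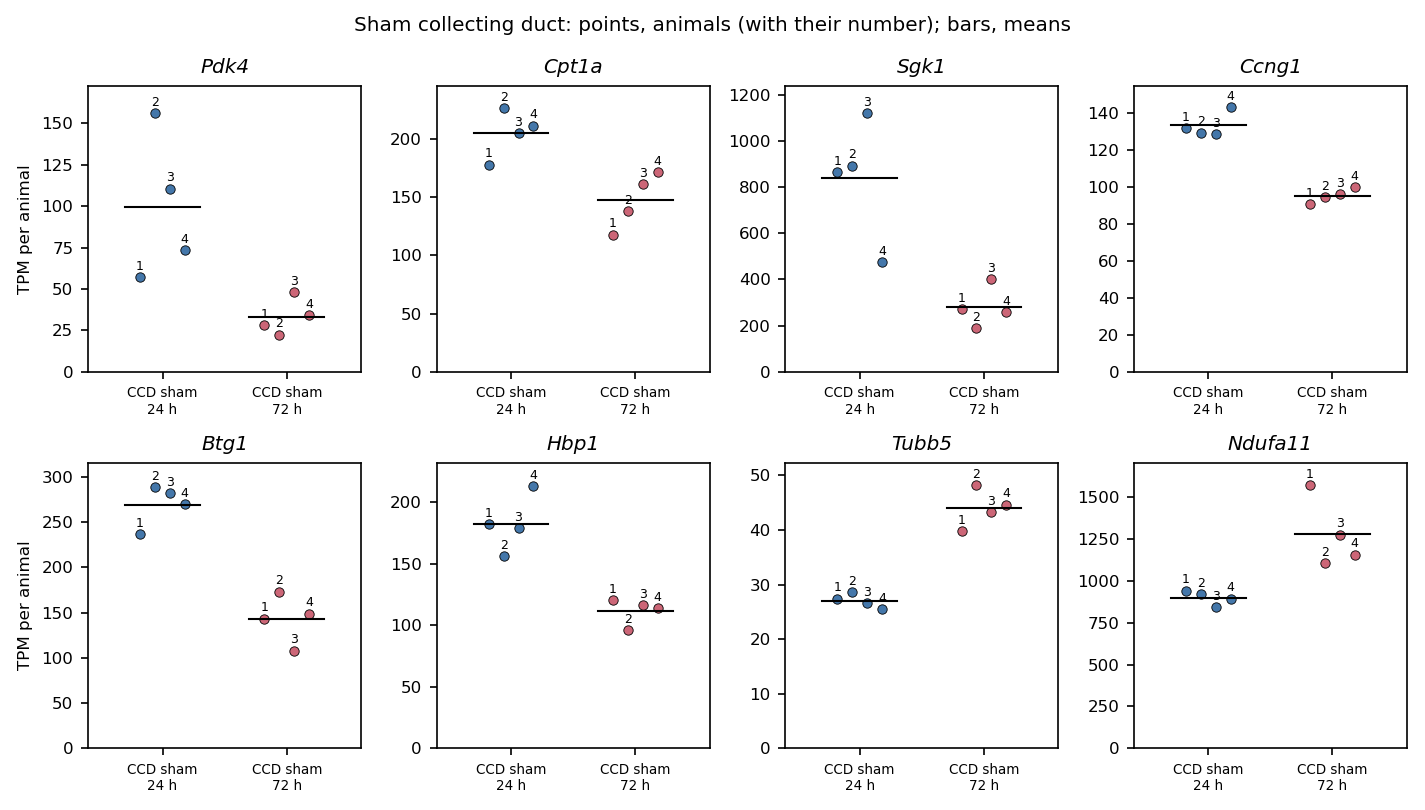
TPM of 8 genes in each sham CCD mouse (points, with the number of the mouse) and the mean (bars) at 24 h and 72 h. Pdk4, Cpt1a, Sgk1, Ccng1, Btg1 and Hbp1 have their lower values at 72 h and Tubb5 and Ndufa11 their higher ones, with no overlap between the times in any panel. With the library of low correlation left out, Cpt1a, Ccng1 and Hbp1 overlap (72 h mouse 1 at 199, 136 and 169 TPM).

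No hormone target of the lists passed the test. Sgk1, the kinase induced by aldosterone and glucocorticoids that keeps the sodium channel at the cell surface, stood at 863, 893, 1120.2 and 474 TPM at 24 h and at 270.0, 188, 401 and 257 TPM at 72 h (-1.58, SE 0.281, adjusted p = 0.0650). The mice did not overlap, and 24 h mouse 4 was the lowest of its time. The channel subunits Scnn1a, Scnn1b and Scnn1g, picked after their values were seen, overlapped and had 0.15, -0.08 and -0.35 (adjusted p = 0.811, 0.785 and 0.277), and the sign of Scnn1b turned under median-ratio scaling and without the library of low correlation, where the 3 had 0.41, 0.05 and -0.15. Of 17 genes of the sodium channel and aldosterone pathway, 3 were lower and 1 higher at unadjusted p under 0.05, where 12.8% and 4.14% of all genes were. Of 15 glucocorticoid targets, 4 were lower (Sgk1, Pdk4, Zbtb16 and Cebpd) and 0 higher, 4 without overlap, where 9.52% of all genes were lower without overlap. Cebpd, a transcription factor of the acute phase, stood at 18.3 to 31.7 TPM at 24 h and at 9.63 to 15.4 TPM at 72 h (-0.86, adjusted p = 0.110).

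Genes of water transport overlapped between the times. Aqp2 stood at 10235, 34119.8, 33776 and 12044 TPM at 24 h and at 15345, 27756, 9375 and 11097 TPM at 72 h (-0.42, SE 0.468, adjusted p = 0.681), with mice 2 and 3 high at 24 h and mouse 2 high at 72 h, and its sign turned under quantile normalization. Aqp3 and Aqp4, through which water leaves the cell, had -0.15 and -0.28, and Avpr2, the vasopressin receptor, 0.11 (adjusted p = 0.809, 0.602 and 0.748). Elf5, a transcription factor of principal cells, stood at 13.0, 9.26, 14.9 and 13.9 TPM at 24 h and at 10.9, 9.67, 3.24 and 4.44 TPM at 72 h (-0.91, adjusted p = 0.203) and was the 1 gene of 14 tested with an unadjusted p under 0.05; without the library of low correlation 0 had one. The signalling and receptor genes Avpr1a, Adcy6, Prkaca, Prkacb, Ptger1, Ptger3 and Ptger4 and the transcription factors Gata2 and Gata3 lay between -0.36 and 0.11, all with overlap, and between -0.12 and 0.18 without that library, where Gata2 and Ptger4 changed sign and Avpr2 had 0.18. In UNx, Aqp2 and Aqp3 fell, with -1.47 and -0.98 (adjusted p = 0.0222 and 0.0317), and the difference between sham and UNx did not pass for either (adjusted p = 0.969 and 0.969).

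Genes of intercalated cells and of osmotic stress included members with lower values that did not pass. Kit, a receptor kinase that marks intercalated cells, stood at 251, 294, 277 and 353 TPM at 24 h and at 129, 173, 144 and 183 TPM at 72 h (-1.07, adjusted p = 0.118). Atp12a, a pump that trades protons for potassium, stood at 26.1, 41.1, 35.9 and 19.4 TPM at 24 h and at 5.90, 8.45, 16.7 and 14.6 TPM at 72 h (-1.46, adjusted p = 0.122). Neither overlapped between the times, and 4 of 22 acid-base genes were lower and 0 higher at unadjusted p under 0.05, near the 12.8% and 4.14% of all genes. Without the library of low correlation 2 were lower and 1 higher, where 7.84% and 6.96% of all genes were. Kit then had -0.67 and Atp12a -1.23 (adjusted p = 0.127 and 0.106). Of 7 tested osmotic stress genes, 3 were lower and 0 higher, with a median of -0.73. It was -0.39 without that library, when 8 genes were tested, and -0.44 without 24 h mouse 2. Slc5a3, an importer of the osmolyte inositol, stood at 23.4 to 56.8 TPM at 24 h and at 12.0 to 18.4 TPM at 72 h (-1.12, adjusted p = 0.122), with overlap without that library (23.7 TPM in 72 h mouse 1), and Nfat5, the factor that drives this response, at 14.9 to 24.5 TPM at 24 h and at 9.05 to 15.05 TPM at 72 h (-0.74, adjusted p = 0.156). Nfat5 without that library had -0.54 (adjusted p = 0.215).

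Genes of the respiratory chain and the ribosome included members with higher values, none of which passed. Of 77 nuclear-encoded respiratory chain subunits, 29 were higher and 0 lower at unadjusted p under 0.05 (4.14% and 12.8% of all genes), with a median of 0.21. Ndufa11 of complex I stood at 941, 922, 842 and 894 TPM at 24 h and at 1573, 1106, 1275 and 1156 TPM at 72 h (0.48, adjusted p = 0.118). Atp5g1 of the ATP synthase stood at 889 to 1038 TPM at 24 h and at 1187 to 1950.0 TPM at 72 h (0.61, adjusted p = 0.118). The mice did not overlap for these 2 genes, and 72 h mouse 1 was the highest. This rank rested on the library of low correlation. Without it 72 h mouse 1 stood at 1209 and 1463 TPM, below 72 h mouse 3 at 1275 and 1586 TPM. Of 81 cytosolic ribosomal protein genes, 25 were higher and 1 lower, with a median of 0.16; Rps18 stood at 217 to 239 TPM at 24 h and at 292 to 324 TPM at 72 h (0.41, adjusted p = 0.0781). Without the library of low correlation the ribosomal count was 5 higher and 1 lower (median 0.05), near the shares of all genes then (6.96% and 7.84%), and Rps18 overlapped (0.29, adjusted p = 0.321). The respiratory chain count was then 23 higher and 3 lower (median 0.13). In UNx 55 respiratory chain and 33 ribosomal genes rose, where 4.1% of all genes did, and 0 fell.

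**Figure D3:**
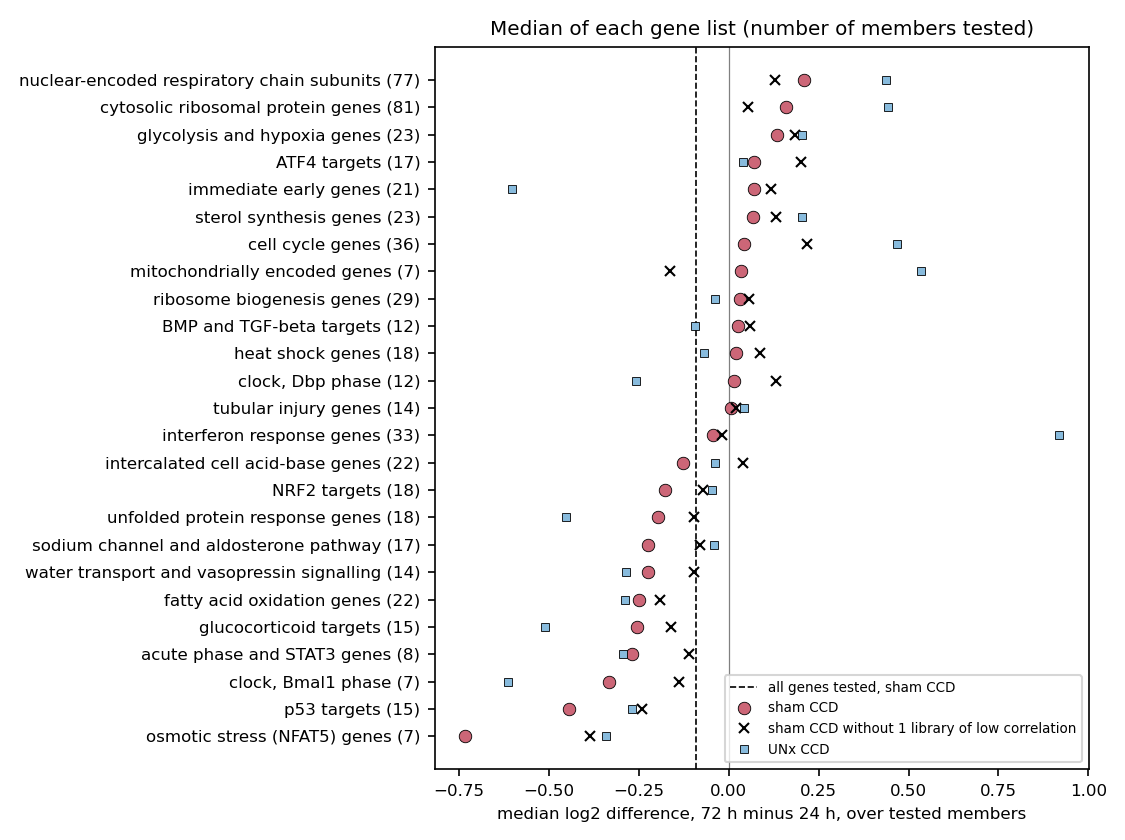
Median log2 difference (72 h minus 24 h) of the tested members of each gene list in sham CCD, in sham CCD without the library of low correlation and in UNx CCD, with the median of all genes as a dashed line (-0.09 in sham CCD). In sham CCD osmotic stress genes lie at -0.73, p53 targets at -0.44 and respiratory chain subunits at 0.21, and without that library at -0.39, -0.24 and 0.13. Without that library 8 osmotic stress genes were tested, against 7 with it.

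Clock genes were measured because the hour of dissection is not given. Of 12 tested genes that peak near Dbp, 1 was lower and 0 higher at unadjusted p under 0.05, and of 7 that peak near Arntl (Bmal1, an activator at the core of the clock), 3 were lower and 0 higher, all with overlap. Over all genes 12.8% were lower and 4.14% higher. Without the library of low correlation 0 and 2 were lower, where 7.84% of all genes were. In UNx CCD 3 of the genes near Dbp and 1 near Arntl fell and 0 rose, where 4.71% of all genes fell. They were Per1 (-1.20), Per2 (-1.16), Usp2 (-0.60) and Npas2 (-0.63), with limma adjusted p of 0.0297, 0.0469, 0.0459 and 0.0459. The difference between sham and UNx did not pass for any of them. Dbp, an output of the clock, stood at 24.4, 18.6, 6.40 and 56.8 TPM at 24 h and at 67.9, 57.8, 17.1 and 18.3 TPM at 72 h (0.68, SE 0.630, adjusted p = 0.611). Arntl stood at 33.5, 34.0, 34.7 and 24.8 TPM at 24 h and at 16.3, 19.4, 41.3 and 40.5 TPM at 72 h (-0.24, SE 0.308, adjusted p = 0.726). At 72 h, mice 1 and 2 were low in Arntl and high in Dbp and mice 3 and 4 were the reverse, and at 24 h mouse 4 had the lowest Arntl and the highest Dbp. Npas2, a partner of Arntl, stood at 7.20, 7.84, 10.1 and 4.45 TPM at 24 h and at 1.96, 2.77, 8.10 and 7.81 TPM at 72 h (-0.59, adjusted p = 0.487), and the repressor Ciart at 2.79, 2.73, 2.13 and 2.63 TPM at 24 h and at 4.10, 5.19, 1.71 and 0.948 TPM at 72 h (0.02, adjusted p = 0.981). At 72 h Npas2 ordered the pairs of mice as Arntl did and Ciart as Dbp did. Without that library Arntl had -0.09 and Ciart 0.14. The part of the hour of dissection in these values was not tested.

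Further clock genes are given by their difference. Near Dbp in phase, Tef had 0.15, Per1 -0.02, Per2 -0.42, Per3 0.08, Nr1d1 0.55, Nr1d2 -0.64, Bhlhe40 0.01, Bhlhe41 -0.40, Cry2 0.20 and Usp2 -0.09, with adjusted p from 0.227 to 0.987. Near Arntl, Clock had -0.33, Nfil3 0.08, Cry1 -0.81 and Rora -0.10, with adjusted p from 0.238 to 0.933. The signs of Per1, Usp2 and Rora turned under quantile or median-ratio scaling. Without the library of low correlation the adjusted p of these 14 genes ran from 0.255 to 0.981, Per1 changed sign, and Tef had 0.35, Cry2 0.38, Per2 -0.17, Per3 0.19, Nr1d2 -0.35, Bhlhe40 0.12, Clock -0.14, Nfil3 0.17 and Rora -0.05.

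In PT-S1 of sham mice the clock genes separated the times. Of 11 tested genes near Dbp 8 fell and 0 rose, and of 7 near Arntl 3 rose and 0 fell. Of all genes 3.57% passed in either direction (of 12061, 273 fell and 158 rose). Dbp stood at 133 to 153 TPM at 24 h and 9.02 to 16.0 TPM at 72 h (-3.48, adjusted p = 7.22e-06), and Arntl at 0.491 to 1.93 and 6.80 to 11.4 TPM (2.21, adjusted p = 8.73e-04). The time difference in CCD differed from that in PT-S1 for 4 of 10 genes near Dbp and 2 of 7 near Arntl, where 1.22% of all genes passed. It was 4.16 for Dbp (adjusted p = 0.0104) and -2.45 for Arntl (adjusted p = 0.0101). The labels do not say whether a mouse gave both segments.

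**Figure D4:**
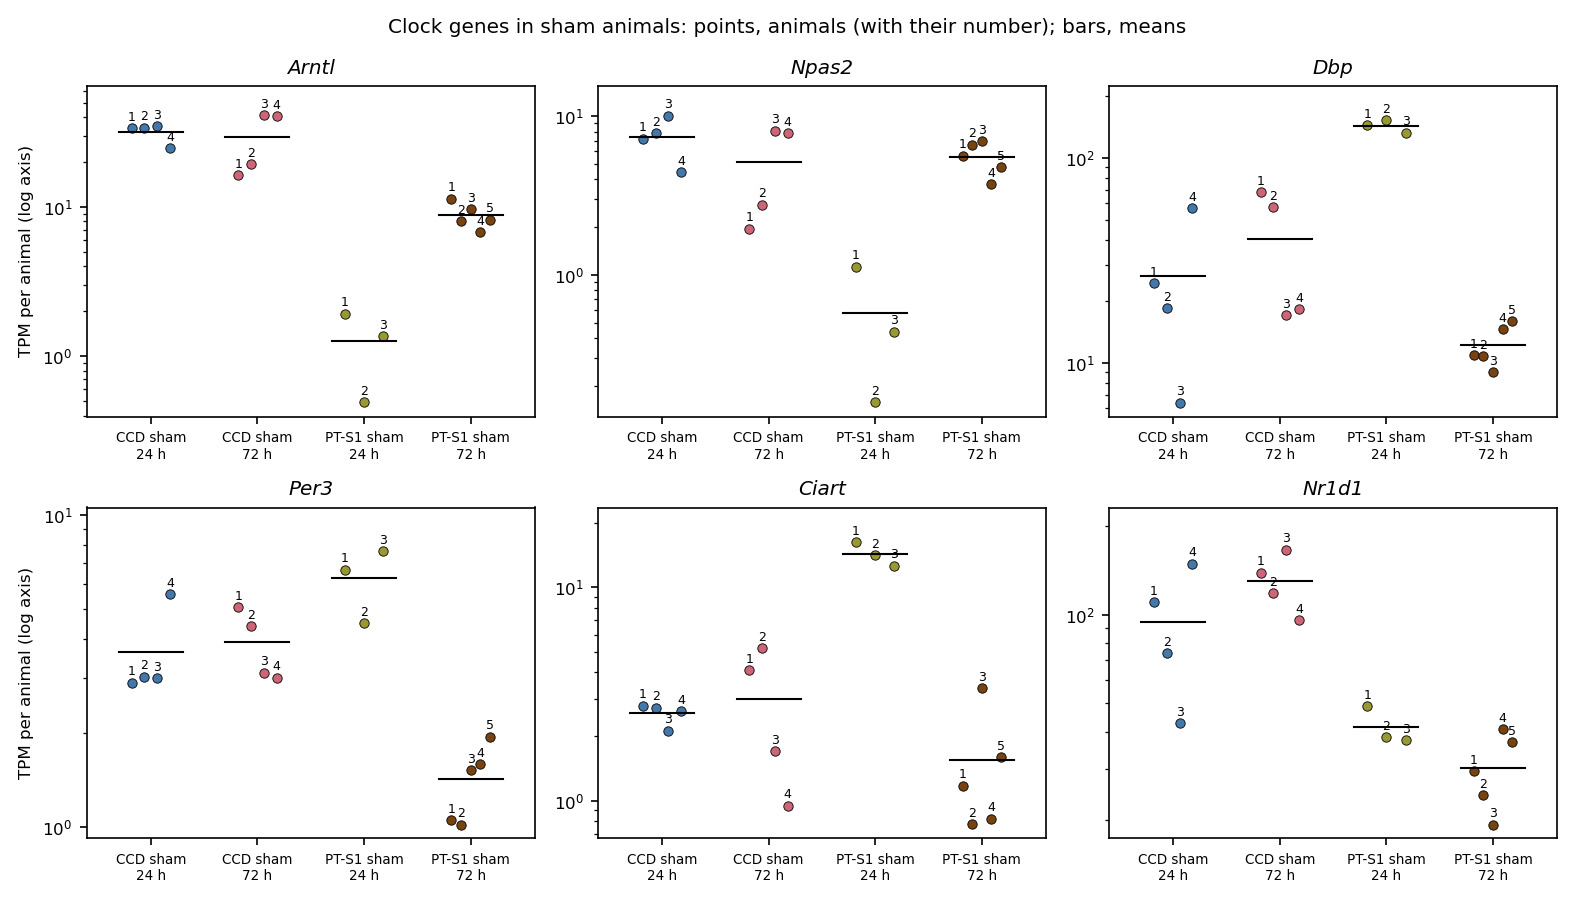
TPM (log axis) of 6 clock genes in each sham mouse (points, with the number of the mouse) and the mean (bars) at 24 h and 72 h, in CCD and PT-S1. In CCD the times overlap in every panel, and in PT-S1 they separate for Arntl, Npas2, Dbp, Per3 and Ciart.

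Transcripts of the thick ascending limb, another tubule, had higher values in the 24 h mice, though no marker passed the test with all libraries. Its 6 markers summed to 106 to 4262 TPM per mouse at 24 h and 19.7 to 82.0 TPM at 72 h, and in UNx to 90.3 to 203 and 11.5 to 27.1 TPM. Of the list 4 of 6 were lower and 0 higher at unadjusted p under 0.05 (12.8% and 4.14% of all genes), 0 passed the adjusted threshold, and 0 were at 0 in every library. Umod, the uromodulin of this segment, stood at 703, 3034, 95.2 and 177 TPM at 24 h and at 54.9, 15.6, 13.7 and 16.0 TPM at 72 h (-3.68, SE 0.599, adjusted p = 0.0573). Slc12a1, the transporter that defines the segment, stood at 57.5, 402, 2.01 and 18.6 TPM at 24 h and at 2.66, 0.230, 0.0401 and 0.270 TPM at 72 h (-2.94, adjusted p = 0.143). In mean TPM 72 h mouse 1 exceeded 24 h mouse 3, but on the log2 values averaged per mouse the times did not overlap. Umod passed without the library of low correlation (-4.01, adjusted p = 0.0390). Of the 6 markers 5 were then lower at unadjusted p under 0.05, where 7.84% of all genes were, and the 72 h sums were 19.7 to 23.3 TPM. All 24 h libraries held 78.2 TPM of Umod or more, and 72 h libraries other than that of low correlation held 10.3 to 26.2 TPM. Libraries of 1 mouse differed: of the pair from 24 h mouse 2, 1 held 5977 TPM of Umod and the other 90.1 TPM. In bulk samples fewer cells of a type and less RNA per cell cannot be told apart, and the part of these transcripts in the differences of other genes was not tested. Markers of proximal tubule S3 (122 to 202 and 88.2 to 332 TPM summed) and of endothelium (105 to 245 and 53.6 to 337 TPM summed) overlapped between the times in their sums. Of 6 S3 markers 1 was lower at unadjusted p under 0.05. Without the library of low correlation 4 were, where 7.84% of all genes were, with 72 h sums of 88.2 to 177 TPM. The part of S3 transcripts in other results was not tested.

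**Figure D5:**
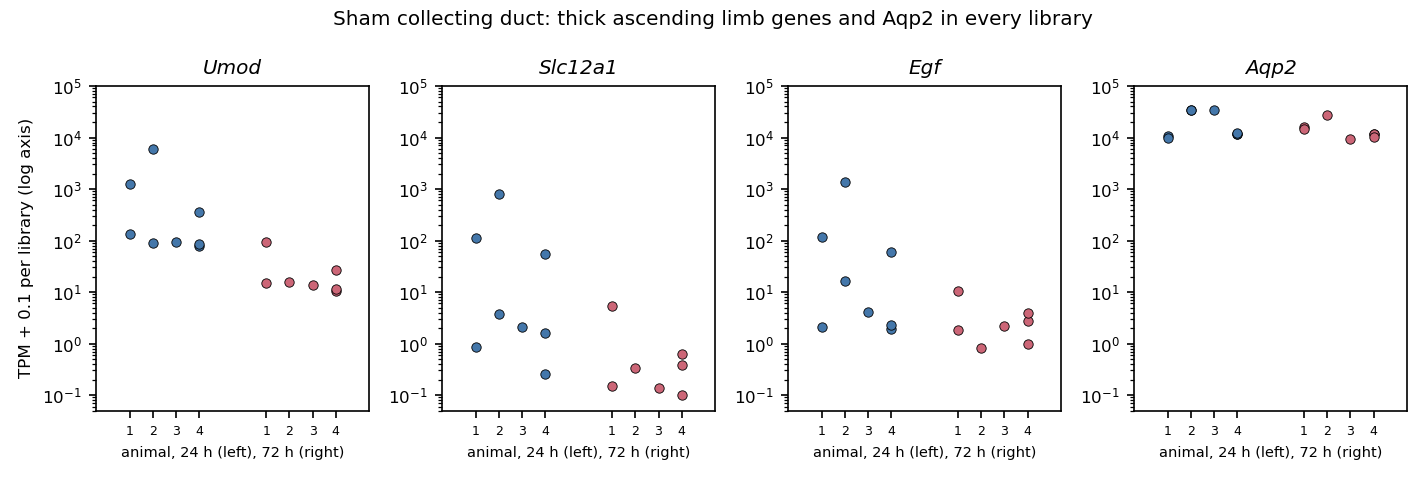
TPM + 0.1 (log axis) of 3 thick ascending limb genes and of Aqp2 in every sham CCD library, by mouse, at 24 h and 72 h. The highest Umod, Slc12a1 and Egf are in 1 library of 24 h mouse 2, and the library of low correlation of 72 h mouse 1 has the highest Umod of its time (95.3 TPM).

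Sham and UNx values of the same genes were set side by side over the whole table. In UNx 1210 of 13745 genes (8.8%) passed, and 6 of the 7 sham calls were called there in the same direction, or 4 of the 5 that were not at 0 in a table. Of the sham genes at unadjusted p under 0.05, 92.8% of the lower ones had a lower mean in UNx and 90.5% of the higher ones a higher mean, and 71.7% of all genes had the same sign. The sham and UNx groups of 1 time share a table, so a difference between the tables enters both. The difference between the time differences of sham and UNx passed for 0 genes (0%) in limma, with 683 at an unadjusted p under 0.05 and a smallest adjusted p of 0.189. The UNx count was 649, 202 and 45 without its 24 h mouse 1, 2 and 3, and 581, 269 and 288 without its 72 h mouse 2, 3 and 4. The PT-S1 count of 431 fell to 93 and 179 without its 24 h mouse 1 and 2 and to 180 and 263 without its 72 h mouse 1 and 4. The count of 136 for CCD against PT-S1 ranged from 72 to 302 when any mouse was left out, with the lowest value without 72 h PT-S1 mouse 1 and the highest without 72 h CCD mouse 1; it was 88, 83, 85 and 84 without 24 h CCD mouse 1, 2, 3 and 4, 87 without 72 h CCD mouse 4, 89 and 86 without 24 h PT-S1 mouse 2 and 3 and 89 without 72 h PT-S1 mouse 2.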

How the data were processed

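The authors deposited TPM per gene and library, 1 table per segment and time. Per the submitters' processing notes, STAR, RSEM 1.3.3 and the build GRCm39 were used; their roles, filters and the annotation release are not given in the sources used here. TPM sums to 1e+06 per library, so depth is unknown and no counting interval is given. The members and gene lists were chosen with earlier results of these data known.

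Of 69 columns, 47 matched 1 sample by name and 22 (7 of sham CCD) a group and mouse only; no columns were identical. Titles number the operated animals, and that number was taken to name the mouse; p-values measure the spread between these mice. There are 55487 identifiers at 24 h and 53700 at 72 h; libraries were rescaled over the 52404 shared ones, of which 484 carry another symbol. Values of log2(TPM + 1) were averaged per mouse. Genes whose TPM averaged 1 or more over the sham CCD mice were tested with limma 3.58.1 (R 4.3.3), with a mean-variance trend, two-sided, Benjamini-Hochberg adjusted over all genes tested, threshold 0.05. UNx was fitted alone on the same genes and PT-S1 alone on its own; differences between time differences were contrasts in models of 4 groups. A library was of low correlation under a median of 0.92. The fit was tested on simulated data.

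Named genes are at most 12 called per direction with a group mean of at least 10 TPM, no overlap, not at 0 in a table and no predicted symbol. As 0 higher and 3 lower genes qualified, the 5 with the smallest p per direction stood in. Clock and water genes and the 2 members with the smallest p of each other list are named too, apart from a few genes that are not reported here; further names are marked as picked after their values were seen, as are Umod, Slc12a1, Egf, Klhl24, Ccng2, Depp1, Tfrc, Heph, Fth1, Ftl1, Foxo1, Foxo3, Tubb4b and Tuba1b.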

Additional observations from a re-analysis of the deposited data

Results flagged for a closer look

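In 10 of 234 tests of a named gene in a group of 4 mice, 1 mouse lay far from the other 3 by Dixon's criterion; chance flags about 1 in 20 such groups. At 24 h, mouse 4 stood apart for Arntl (24.8 against 33.5 to 34.7 TPM in the others), Cirbp (112 against 59.1 to 65.6), Foxo3 (7.31 against 8.55 to 8.87), Hsp90aa1 (253 against 321 to 330.5), Per3 (5.58 against 2.90 to 3.04) and Ptges (363 against 393 to 399.9). At 72 h, mouse 1 stood apart for Adcy6 (15.5 against 28.8 to 32.8 TPM), Tyms (104 against 75.3 to 76.2) and Umod (54.9 against 13.7 to 16.0), and mouse 2 for Ugdh (77.0 against 44.7 to 47.5). The value of Umod rested on the library of low correlation. Without it 72 h mouse 1 stood at 14.6 TPM for Umod, within the range of the others, at 18.6 TPM for Adcy6 and at 101 TPM for Tyms.

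The time difference of CCD differed from that of PT-S1 in sham mice, by limma's test of the difference itself, for 16 named genes. Over all 11190 genes tested this way 136 (1.22%) passed. Some of the 16 were picked after their values were seen or for a small p in sham CCD. CCD was above PT-S1 by 4.16 (log2) for Dbp, 2.88 for Nfix, 2.67 for Ciart, 2.20 for Tfrc, 1.85 for Bhlhe40, 1.61 for Per3, 1.31 for Mcrip2, 1.11 for Tubb4b, 0.96 for Tyms, 0.83 for Tubb5, 0.76 for Tmem254a and 0.74 for Tomm40. The difference was -4.49 for Depp1, -2.72 for Npas2, -2.45 for Arntl and -2.05 for Trp53inp1. Tables of CCD and PT-S1 are separate, and Tmem254a is at 0 in the 24 h tables of both.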

How the results depend on the processing

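The count of 7 called genes (2 higher, 5 lower) moved with most settings. With higher and lower counts in brackets, it was 20 (7, 13) with values as deposited, 48 (15, 33) with quantile normalization, 15 (7, 8) with median-ratio scaling, 48 (11, 37) with the log2 of the mean TPM per mouse, 425 (175, 250) with every library as a replicate, 185 (96, 89) with the mouse as a random effect, 265 (94, 171) with arrayWeights, 659 (179, 480) with all 15 CCD mice in the fit and 14 (6, 8) without the library of low correlation. It was 4 (0, 4) without genes at 0 in a table, 5 (1, 4) at a mean of at least 5 TPM, 5 (2, 3) with TPM above 0 in at least 4 mice and 7 (2, 5) with a pseudocount of 0.1. Leaving out each mouse gave 2 to 23 called genes, 1 to 5 higher and 1 to 18 lower. With the mouse number as a replicate block it was 4 (1, 3); the numbers do not pair the mice (correlations of same-numbered deviations 0.191, 0.0386, -0.0450 and 0.0449). Leaving out each mouse gave 45 to 1773 calls in UNx, 93 to 520 in PT-S1 and 72 to 302 for CCD against PT-S1. None of the 7 called genes changed sign in the 22 alternatives; of 110 named genes not called, 45 passed in at least 1 and 24 changed sign in at least 1. The cause was not tested. The alternatives of UNx, PT-S1 and the differences between groups, and list counts, overlaps and named differences without 1 library or mouse, were chosen after seeing the data. Depth is unknown, so no detection limit is given for low genes.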

Other observations

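Lists of other programs held no gene that passed in sham CCD. Of 33 tested interferon response genes, 0 passed limma's adjusted threshold and 0 had an unadjusted p under 0.05 (median -0.04, a sign that turned under quantile and median-ratio scaling). In UNx the list's median was 0.92 with 2 members called higher. In PT-S1 of sham mice the median was 0.71, with 7 of 31 tested members called higher and 0 lower. Over all genes there, 158 of 12061 were called higher. The time difference in CCD differed from that in PT-S1 for 0 of 30 members. Differences between the lists as wholes were not tested. Of 36 cell cycle genes, 1 was higher and 2 lower at unadjusted p under 0.05 (median 0.04), where 4.14% and 12.8% of all genes were. Without the library of low correlation 5 were higher and 2 lower (median 0.22), where 6.96% and 7.84% of all genes were, and in UNx 4 rose and 0 fell (median 0.47). Tyms, which makes thymidylate for DNA synthesis, stood at 53.9 to 65.6 TPM at 24 h and at 75.3 to 104 TPM at 72 h (0.50, adjusted p = 0.127), and Mcm7 of the replication helicase at 24.3 to 29.1 TPM at 24 h and at 16.1 to 22.4 TPM at 72 h (-0.46, adjusted p = 0.166). Mcm7 without that library had -0.36 (adjusted p = 0.217). Of 14 tubular injury genes, 1 was higher and 2 lower (0 and 2 of 15 tested without that library), with S100a6 at 9.69 to 18.9 TPM at 24 h and at 16.4 to 38.3 TPM at 72 h (0.73, adjusted p = 0.242).

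Stress lists held lower members that did not pass. Of 18 unfolded protein response genes, 5 were lower and 0 higher at unadjusted p under 0.05, where 12.8% and 4.14% of all genes were. Without the library of low correlation 2 were lower, where 7.84% of all genes were. Dnajb9, a co-chaperone of the endoplasmic reticulum, stood at 25.0 to 25.9 TPM at 24 h and at 10.3 to 17.9 TPM at 72 h (-0.78, adjusted p = 0.108). Of 18 NRF2 targets, 5 were lower and 1 higher, and without that library 4 and 2 (7.84% and 6.96% of all genes then). Gclc, of the enzyme that starts glutathione synthesis, stood at 348 to 395 TPM at 24 h and at 253 to 299 TPM at 72 h (-0.53, adjusted p = 0.0732; without that library it overlapped, with -0.36), and fell in UNx by 0.63 (adjusted p = 0.0202). Ccn2, a TGF-beta target, stood at 69.0, 111, 141 and 134 TPM at 24 h and at 63.7, 66.2, 42.7 and 44.7 TPM at 72 h (-1.03, adjusted p = 0.113), without overlap except when the library of low correlation was left out (73.3 TPM in 72 h mouse 1, above 24 h mouse 1).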
